A study of Mus musculus with 2 samples.

Results

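Saa3 Timp1 fibroblasts were defined as lung fibroblasts with at least 1 UMI, that is 1 counted mRNA molecule, of both Saa3 and Timp1. Of 21547 deposited cell barcodes, 60 met the definition, 40 in the WT library and 20 in the Plaur KO library. The cells were chosen by the measured UMIs of the genes that follow. Each had 500 genes or more, no more than 15% mitochondrial UMIs, and at least 3 of the 6 fibroblast genes Col1a1, Col1a2, Col3a1, Dcn, Mgp and Pdgfra. It showed at most 3 of the 6 adventitial genes Pi16, Col14a1, Dpt, Clec3b, Mfap5 and Serpinf1, and at most 2 of the 6 alveolar genes Npnt, Ces1d, Itga8, Tcf21, Limch1 and Scn7a. Limits of 2 smooth muscle genes, 1 mesothelial gene and 1 gene of endothelial, alveolar type 2 or immune cells completed the definition. Since detection of these genes chose the cells, their levels, and any contrast of these cells with other fibroblasts, are a description and carry no test.

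The cells came from lungs of WT (C57B6/J) and Plaur KO mice, the latter lacking the gene of the urokinase receptor uPAR. Mice of both genotypes, 8 each, had received LPS and ovalbumin (OVA) on days 0 and 7 and aerosolized OVA on day 14. Flow sorting for cells without CD45.2 on their surface removed most leukocytes. Per genotype, about 16000 of the remaining live lung cells were loaded for 1 library of 3' single-cell RNA sequencing in droplets. The labels give neither the number of mice behind each library nor the deleted part of Plaur, they give C57B6/J as the strain of both libraries, and their cell type field reads total lung cell lysate. With 1 library per genotype no difference between the libraries has a replicate check. Intervals are 95% counting intervals, and cells of a library are not replicates.

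There were 57028943 UMIs over 11776 barcodes in WT and 51529241 UMIs over 9771 barcodes in Plaur KO, and 10842 and 9109 cells passed the gene and mitochondrial limits. The 2 libraries shared 30 barcode sequences, none of them among the Saa3 Timp1 fibroblasts. Plaur was counted in both libraries, so the 3' tags do not check the knockout label. Airway secretory Scgb1a1 stood at 3094 CPM (UMIs scaled to a total of 1000000) in WT and 158.4 CPM in Plaur KO adventitial fibroblasts. A single WT cell held 1331 of the 5192 UMIs there, and the per-cell medians were 872.6 and 0 CPM. Free RNA was not measured, and its part in the results below was not tested.

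Fibroblasts lay down and remodel the matrix of the lung, and adventitial fibroblasts of the cuffs around airways and vessels differ from alveolar fibroblasts of the gas-exchange walls. When stimulated by cytokines such as interleukin 1, tumour necrosis factor or interferons, fibroblasts are known to secrete acute phase proteins and chemokines through NF-kB, C/EBP and STAT factors. Saa3 encodes an acute phase serum amyloid A protein made outside the liver, and Timp1 an inhibitor of matrix metalloproteinases. Ccl2 draws monocytes, Mgp is matrix Gla protein, an inhibitor of calcification, and Mfap4 is a microfibril protein of elastic fibres.

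The promoters of both defining genes, Saa3 and Timp1, and of Lcn2 and Cxcl10, both called higher in these cells than in adventitial fibroblasts, are shown as those of genes whose levels are described below. Lcn2 and Cxcl10 were chosen for this after their values were seen. The sequences are RefSeq promoters of build GRCm38.p6, from 250 bases before to 50 after the gene start: Saa3 at chr7:46715627-46715926 on the minus strand, Timp1 at chrX:20869916-20870215 on the plus strand, Lcn2 at chr2:32387690-32387989 on the minus strand and Cxcl10 at chr5:92348840-92349139 on the minus strand. Each reads 5' to 3' on the gene's strand, and capitals mark matches to the NF-kB motif, GGG followed by any 5 bases and CC, on either strand.
Saa3: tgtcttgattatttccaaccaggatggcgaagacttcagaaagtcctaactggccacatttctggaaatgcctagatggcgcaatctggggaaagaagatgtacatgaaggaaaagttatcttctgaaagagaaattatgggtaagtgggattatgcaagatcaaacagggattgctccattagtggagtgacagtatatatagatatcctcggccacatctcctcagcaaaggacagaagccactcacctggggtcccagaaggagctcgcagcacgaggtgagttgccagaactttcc
Timp1: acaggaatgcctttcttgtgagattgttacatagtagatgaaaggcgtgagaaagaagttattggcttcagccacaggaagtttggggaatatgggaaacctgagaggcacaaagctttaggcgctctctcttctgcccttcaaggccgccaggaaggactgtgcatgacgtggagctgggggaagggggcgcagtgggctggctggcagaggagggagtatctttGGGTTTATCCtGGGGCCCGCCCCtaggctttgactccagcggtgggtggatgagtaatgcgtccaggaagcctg
Lcn2: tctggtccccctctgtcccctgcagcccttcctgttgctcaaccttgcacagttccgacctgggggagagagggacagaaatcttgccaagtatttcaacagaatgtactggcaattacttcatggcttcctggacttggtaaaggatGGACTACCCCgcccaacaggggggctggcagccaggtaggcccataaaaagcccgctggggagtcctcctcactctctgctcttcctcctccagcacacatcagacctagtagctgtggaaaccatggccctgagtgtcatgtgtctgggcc
Cxcl10: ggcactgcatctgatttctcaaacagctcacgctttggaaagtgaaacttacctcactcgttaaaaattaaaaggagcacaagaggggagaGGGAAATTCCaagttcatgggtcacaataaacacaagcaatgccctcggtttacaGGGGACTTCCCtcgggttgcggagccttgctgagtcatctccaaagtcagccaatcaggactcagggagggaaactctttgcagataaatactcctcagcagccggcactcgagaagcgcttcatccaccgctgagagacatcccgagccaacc
Saa3 held no match to the NF-kB letters and 4 to the C/EBP motif TTNNGNAA. Timp1 held 5 and 1, Lcn2 1 and 1, and Cxcl10 4 and 2, where the runs of capitals in Timp1 and Cxcl10 join matches that overlap each other. In Timp1 and in Cxcl10, 1 stretch matches the NF-kB letters on both strands and was counted once for each strand. Both motifs are frequent: 50.79% of 32851 RefSeq promoters hold the NF-kB letters and 40.68% the C/EBP letters. A match is a description of the sequence and not a site of binding.

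Saa3 (ENSMUSG00000040026, GRCm38 chr7:46711998-46715700) was detected in all 60 cells by definition, over a wide range. Its level per WT cell ran from 310.8 to 52593 CPM with a median of 10646.5, and per Plaur KO cell from 630.5 to 51922 CPM with a median of 9682. The cells of the libraries overlapped over nearly the whole range. Timp1 (ENSMUSG00000001131, chrX:20870166-20874735) ran from 168.5 to 28095 CPM with a median of 4886 in WT cells, and from 758.2 to 63012 CPM with a median of 6018 in Plaur KO cells. The highest Timp1 cell was in the Plaur KO library, and the lowest cells in the WT library.

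The other markers of the label were present but not in every cell. Ccl2 (ENSMUSG00000035385, chr11:82035571-82037453) had a UMI in 26 of 40 WT cells, with a median of 1705.5 and a highest value of 36512 CPM. In Plaur KO cells it had a UMI in 13 of 20, with a median of 1083.6 and a highest value of 34856 CPM. The remaining cells of each library showed no Ccl2 at their depth, and the ranges overlapped in full. Mgp was detected in 39 of 40 and 20 of 20 cells, with medians of 14822 and 15020 CPM. Mfap4 was detected in 30 of 40 and 17 of 20 cells, with medians of 1484.5 and 1132 CPM.

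**Figure D1:**
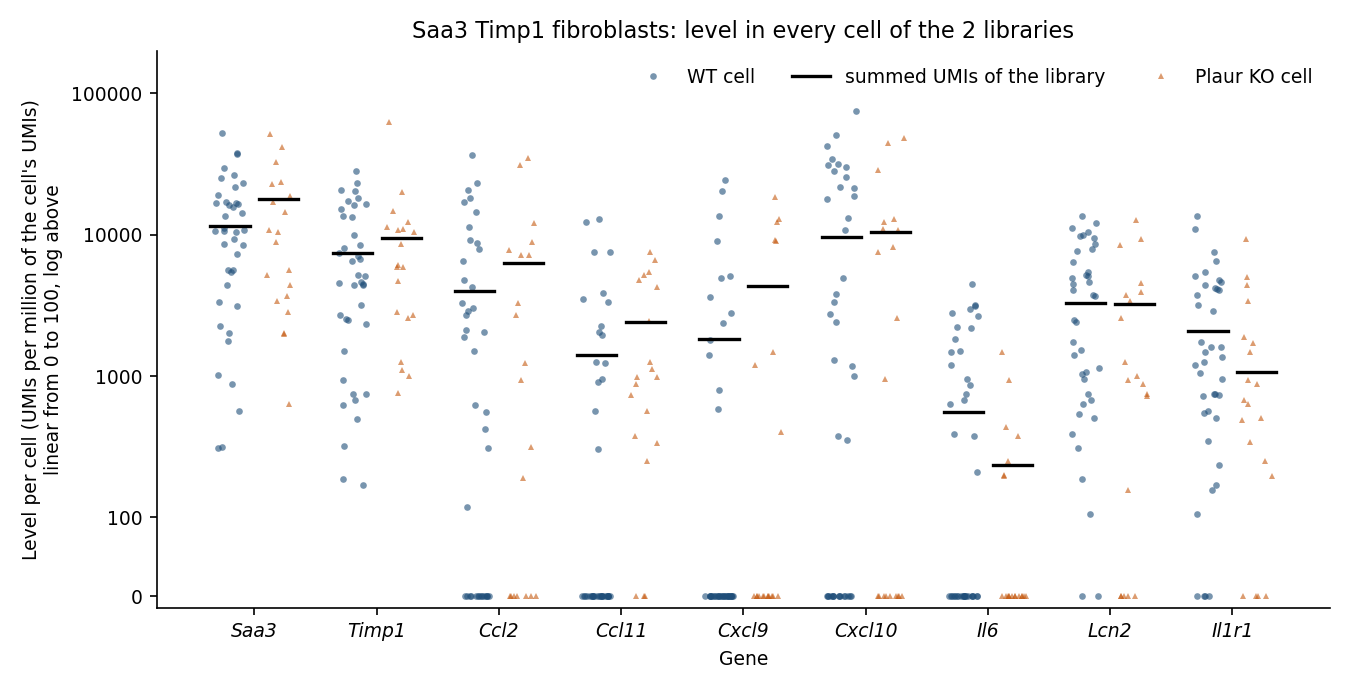
Level of 9 genes in every Saa3 Timp1 fibroblast, in CPM of the cell's UMIs on an axis linear from 0 to 100 and log above, for 40 WT cells (circles) and 20 Plaur KO cells (triangles); black lines are the level of the summed UMIs of a library. The cells of the libraries overlap for each of the 9 genes. Cxcl9 was detected in 13 of 40 WT and 8 of 20 Plaur KO cells, Il6 in 20 and 7 and Ccl11 in 16 and 17.

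These were shallow cells. The median was 2354 UMIs in WT (964 to 9519) and 2951 in Plaur KO (888 to 6375), with 1203.5 and 1381 genes per cell, and the cells held 120772 and 59441 UMIs in all. Adventitial fibroblasts, with at least 4 adventitial and at most 2 alveolar genes, had medians of 4096 and 3986 UMIs over 399 and 120 cells. Alveolar fibroblasts, with at least 3 alveolar and at most 3 adventitial genes, had 2570 and 2292 UMIs over 474 and 189 cells. The upper limits on adventitial and alveolar genes are met more easily by a shallow cell: when every cell was thinned to 1000 UMIs before the definition was applied, 141 WT and 54 Plaur KO cells met it.

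Most cells lay close to a limit. Of the 60 cells, 23 showed 3 adventitial genes, 37 showed 2 alveolar genes and 16 showed both, while 4 cells had 1 UMI of Saa3 and 7 had 1 UMI of Timp1. Just outside, 96 cells failed the adventitial limit alone and stood at 7198 CPM of Saa3, and 148 failed the alveolar limit alone and stood at 14519 CPM. A further 77 failed for want of a Saa3 UMI and 9 for want of a Timp1 UMI. Over all fibroblasts, Saa3 and Timp1 were detected together in 265 of 1227 WT cells (21.6%, 19.3 to 24.0) and 110 of 434 Plaur KO cells (25.4%, 21.3 to 29.7). They were detected together in 18.3% of WT and 19.2% of Plaur KO adventitial fibroblasts, and in 22.2% and 22.8% of alveolar fibroblasts. The 60 cells are therefore the share of Saa3 and Timp1 positive fibroblasts in which few adventitial and alveolar genes were counted.

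The share of these cells among all cells was 0.369% in WT (0.264 to 0.502, 40 of 10842) and 0.220% in Plaur KO (0.134 to 0.339, 20 of 9109). Among fibroblasts the order was the other way round, 3.26% in WT (2.34 to 4.41, of 1227) and 4.61% in Plaur KO (2.84 to 7.03, of 434). The log2 ratio of Plaur KO over WT was -0.75 (-1.60 to 0.06) over all cells and 0.50 (-0.35 to 1.31) over fibroblasts, and both intervals include 0. The first no longer included 0 with Scrublet-marked cells removed, at -0.84 (-1.72 to -0.02), with cells thinned before the definition, at -1.15 (-1.63 to -0.69), or without the limits on adventitial and alveolar genes, at -1.02 (-1.35 to -0.69).

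Markers of other cells were counted next. All 5 immune markers, among them Ptprc, and all 5 Schwann markers were at 0 in both libraries. Endothelial and ciliated markers summed to 8.28 CPM each in WT and 0 in Plaur KO. Summed adventitial markers stood at 1565 and 1800 CPM against 9390 and 10125 CPM in adventitial fibroblasts, and alveolar markers at 853 and 1077 CPM against 4858 and 5807 CPM in alveolar fibroblasts. These low sums follow from the limits of the definition. It also limited Ptprc, Cdh5, Cldn5, Lamp3, Slc34a2, Msln, Upk3b, Lrrn4 and all 5 smooth muscle markers, so their low values are no check of the label. Peribronchial markers summed to 91.1 and 67.3 CPM, smooth muscle markers to 74.5 and 84.1 CPM and pericyte markers to 132.5 and 33.7 CPM. Of the 5 markers of the label Saa3, Timp1 and Mgp are genes of the definition. Ccl2 was at 4024 and 6326 CPM against 2911 and 1929 CPM in adventitial and 2185 and 3140 CPM in alveolar fibroblasts. Fibroblasts with Saa3 and Timp1 outside the limits on adventitial and alveolar genes had 4099 and 5466 CPM of Ccl2. Mfap4 was higher in alveolar fibroblasts.

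Most cells held some RNA of epithelium, few of them at high levels, and few cells held RNA of mesothelium. Airway secretory markers summed to 15947 CPM in WT and 235.5 CPM in Plaur KO, and 1 WT cell held over 1% of its UMIs as an airway secretory gene, at 201274 CPM of Scgb1a1. Scgb1a1 had a UMI in all 40 WT cells and in 10 of 20 Plaur KO cells. Alveolar type 2 markers summed to 596 and 2641 CPM, and a single Plaur KO cell reached 95863 CPM of Sftpc. Sftpc had a UMI in 25 of 40 WT and 19 of 20 Plaur KO cells. Mesothelial markers summed to 505 CPM in WT, with 1 of 8 at 0, and 16.8 CPM in Plaur KO, with 7 of 8 at 0. Scrublet marked 1 of the fibroblasts in each library as a doublet.

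Over 1030 genes in WT and 468 in Plaur KO, the profile of the Saa3 Timp1 fibroblasts was closer to alveolar and other fibroblasts than to adventitial fibroblasts. Pearson's r on log2(CPM + 10) was 0.85 in WT and 0.84 in Plaur KO with alveolar fibroblasts, and 0.89 and 0.91 with those alveolar fibroblasts that also had Saa3 and Timp1. It was 0.84 and 0.83 with other fibroblasts, that is cells that met the whole definition except for Saa3 or Timp1, and 0.75 and 0.69 with adventitial fibroblasts. Spearman's rho was 0.81 and 0.77 with alveolar, 0.76 and 0.77 with other and 0.68 and 0.67 with adventitial fibroblasts. Mesothelial cells gave 0.51 and 0.40, endothelial cells 0.47 and 0.39. These values are across genes, which are not independent, and each compares classes within a library. Median depth differed between the classes. It was 2354 and 2951 UMIs here, 2570 and 2292 in alveolar, 4096 and 3986 in adventitial fibroblasts and 4825 and 5338 in mesothelial cells. The part of depth in these values was not tested.

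Secreted defence proteins differed in where they stood highest. Lcn2, lipocalin 2, which withholds iron from bacteria, was at 3271 CPM in WT and 3247 CPM in Plaur KO. In alveolar fibroblasts it was at 1444 and 1489.9 CPM, in adventitial fibroblasts at 470.2 and 357.3 CPM, and in other fibroblasts at 399.6 and 703.9 CPM. Among these classes Lcn2 was thus highest in the Saa3 Timp1 fibroblasts in both libraries. Fibroblasts with Saa3 and Timp1 outside the limits on adventitial and alveolar genes had 2225 and 2656 CPM of Lcn2. Lcn2 is also an alveolar type 2 transcript, detected in 95.7% and 94.3% of those cells. Hp, haptoglobin, which binds free haemoglobin, was at 1374.5 and 521.5 CPM against 71.5 and 14.2 CPM in adventitial and 767.8 and 836.2 CPM in alveolar fibroblasts. In Plaur KO it was thus lower than in alveolar fibroblasts, at -0.68 (-1.26 to -0.15). Hp came from few cells, 7 in WT and 4 in Plaur KO, with 42.2% and 54.8% of its UMIs in 1 cell. C3, the central complement component, ran the other way, at 2774 and 3348 CPM against 4390 and 5242 CPM in adventitial fibroblasts.

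Differences were called where a gene was at least 1.5-fold higher or lower with an interval that does not include a ratio of 1, in both libraries for contrasts with other fibroblasts. The genes of the definition were left out of these counts. Against adventitial fibroblasts 4344 genes had at least 20 UMIs, and 4.83% were called higher and 4.81% lower in the Saa3 Timp1 fibroblasts. Against alveolar fibroblasts it was 2.69% higher and 3.07% lower of 4494 genes, and against other fibroblasts 6.85% higher and 2.76% lower of 1270 genes. With edgeR's TMM scaling the counts moved from 210 higher and 209 lower to 134 and 356 against adventitial, and from 121 and 138 to 69 and 222 against alveolar fibroblasts. Because the definition used these cells' own values, the counts of the lists below describe the cells and nothing further is read from them.

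Of the acute phase and innate defence list, 7 of 12 genes were called higher and 1 lower against adventitial fibroblasts, 7 of 13 higher against alveolar fibroblasts, and 7 of 11 higher against other fibroblasts. Chemokines split by class. Of the CXC chemokines 5 of 9 were called higher against adventitial and 6 of 8 against alveolar fibroblasts, with none lower. Of the CC chemokines none of 5 was called against adventitial fibroblasts, while all 4 tested, Ccl2, Ccl7, Ccl11 and Ccl19, were called higher against alveolar fibroblasts. Adventitial fibroblasts had their own high CC chemokine levels: Ccl7, which attracts monocytes, stood at 2934 and 2331 CPM there against 1863 and 1918 CPM in the Saa3 Timp1 fibroblasts. Ccl11, eotaxin, which draws eosinophils, stood at 2494 and 3186 CPM there against 1399 and 2423 CPM.

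Cxcl10 and Cxcl9 are interferon-induced chemokines for T cells. Cxcl10 (ENSMUSG00000034855, chr5:92346638-92348889) was at 9679 CPM in WT (9132 to 10251) and 10515 CPM in Plaur KO (9706 to 11372). It was at 4233.5 and 6262 CPM in alveolar, 1421 and 627 CPM in adventitial and 2593 and 5143 CPM in other fibroblasts. Among these classes both libraries therefore put Cxcl10 highest in the Saa3 Timp1 fibroblasts. Outside the limits on adventitial and alveolar genes, fibroblasts with Saa3 and Timp1 had 5179 and 7697 CPM of Cxcl10. Their Cxcl1 was at 1121 and 1033 CPM, above the 993.6 and 656.1 CPM of the Saa3 Timp1 fibroblasts. Their Il6 was at 593 and 301 CPM, above the 554.8 and 235.5 CPM of the Saa3 Timp1 fibroblasts. Cxcl9 (ENSMUSG00000029417, chr5:92321347-92328079) was at 1829.9 and 4357 CPM, against 589.3 and 922.4 CPM in alveolar and 154.9 and 87.3 CPM in adventitial fibroblasts. Cxcl14, a chemokine made constitutively by many epithelia and fibroblasts, was at 2294 and 2574 CPM against 1340.2 and 1448 CPM in alveolar fibroblasts.

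Of the inflammatory cytokine receptors 3 of 15 were called higher against adventitial and none of 13 against alveolar fibroblasts, with none lower in either. Il1r1, the signalling receptor of interleukin 1, stood at 1.40 and 1.44 above them on the log2 scale in WT and Plaur KO. Osmr, the oncostatin M receptor subunit, stood at 1.61 and 1.63, and Cd14, the lipopolysaccharide co-receptor, at 3.57 and 3.13. Against alveolar fibroblasts Il1r1 at 0.75 and 0.25 and Osmr at 0.58 and 0.38 were not called in both libraries. Il4ra was not called against either class, at 0.41 (-0.95 to 1.53) in WT against adventitial fibroblasts. Il33, an alarmin of type 2 immunity, lay between the classes: its log2 ratio was -2.17 and -1.93 against adventitial and 1.34 and 1.68 against alveolar fibroblasts. Plaur itself stood 1.57 and 1.96 above adventitial and 1.44 and 1.68 above alveolar fibroblasts, on 25 and 8 UMIs.

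Of the NF-kB subunits, feedback genes and targets, 6 of 21 were called higher and none lower against adventitial, and 5 of 19 higher against alveolar fibroblasts. Interferon-induced genes were called higher in 10 of 20 and lower in 1 against adventitial, and higher in 6 of 24 against alveolar fibroblasts. MHC class I and immunoproteasome genes were called higher in 9 of 15 and 7 of 17. Among them H2-Q7, a non-classical class I molecule, had log2 ratios of 2.81 and 4.10 against adventitial fibroblasts, and Tap1, which pumps peptides into the endoplasmic reticulum, of 1.73 and 1.57 against other fibroblasts. The H2-Q genes are near-identical copies, so the division of reads among them is uncertain.

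Of the immediate early genes 7 of 19 were called lower and none higher against adventitial, 6 of 13 lower against other fibroblasts, and none of 17 in either direction against alveolar fibroblasts. Egr1, an early growth response factor, had log2 ratios of -0.90 and -1.03, and Junb, an AP-1 subunit, of -0.87 and -0.93 against adventitial fibroblasts. Matrix genes were lower in part. Proteoglycans and matricellular genes were called lower in 6 of 21 against adventitial and 4 of 17 against alveolar fibroblasts, with 1 higher in each. Against alveolar fibroblasts 5 of 21 growth factors and binding proteins were called lower and none higher, and Mfap4 stood at -0.65 and -0.70. Mfap4 is a marker of the label, yet its level was highest in alveolar fibroblasts, at 2226 and 2811 CPM against 1416 and 1733 CPM here.

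**Figure D2:**
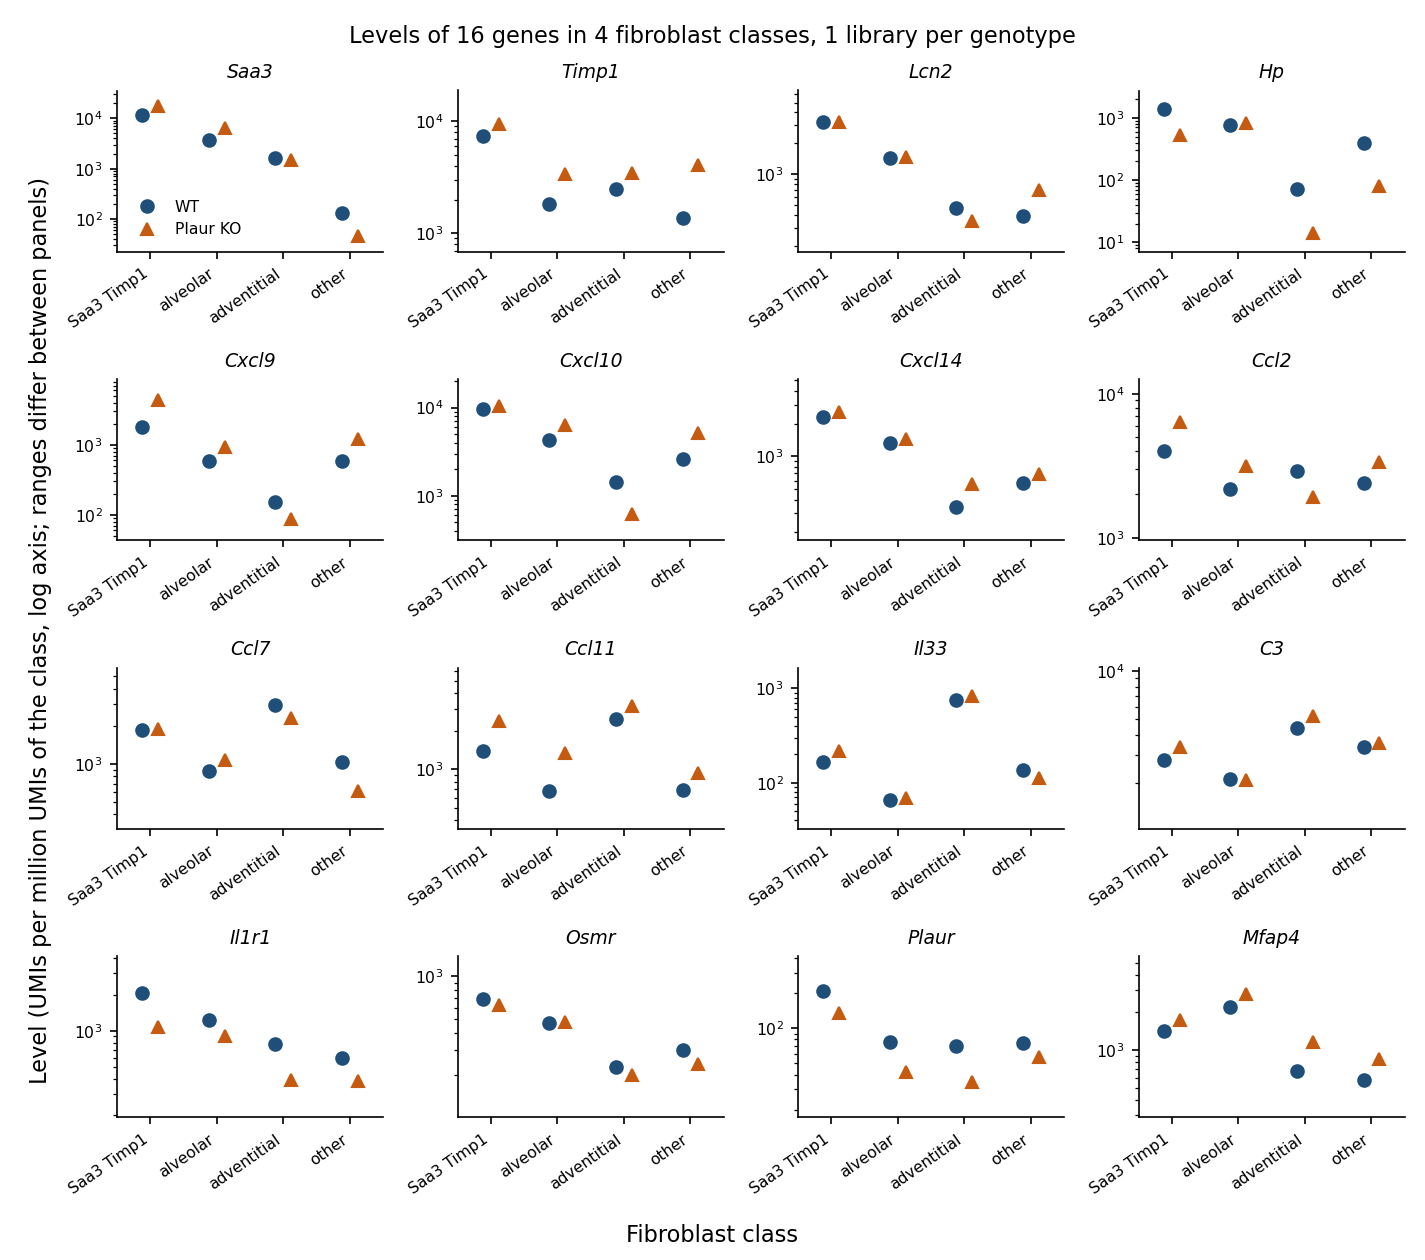
Level of 16 genes in CPM of a class (log axis, range differing between panels) in Saa3 Timp1, alveolar, adventitial and other fibroblasts, with the WT library as circles and the Plaur KO library as triangles, 1 library each. Lcn2, Cxcl9 and Cxcl10, and by definition Saa3 and Timp1, are highest in Saa3 Timp1 fibroblasts in both libraries, while Il33, C3, Ccl7 and Ccl11 are highest in adventitial and Mfap4 in alveolar fibroblasts.

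**Figure D3:**
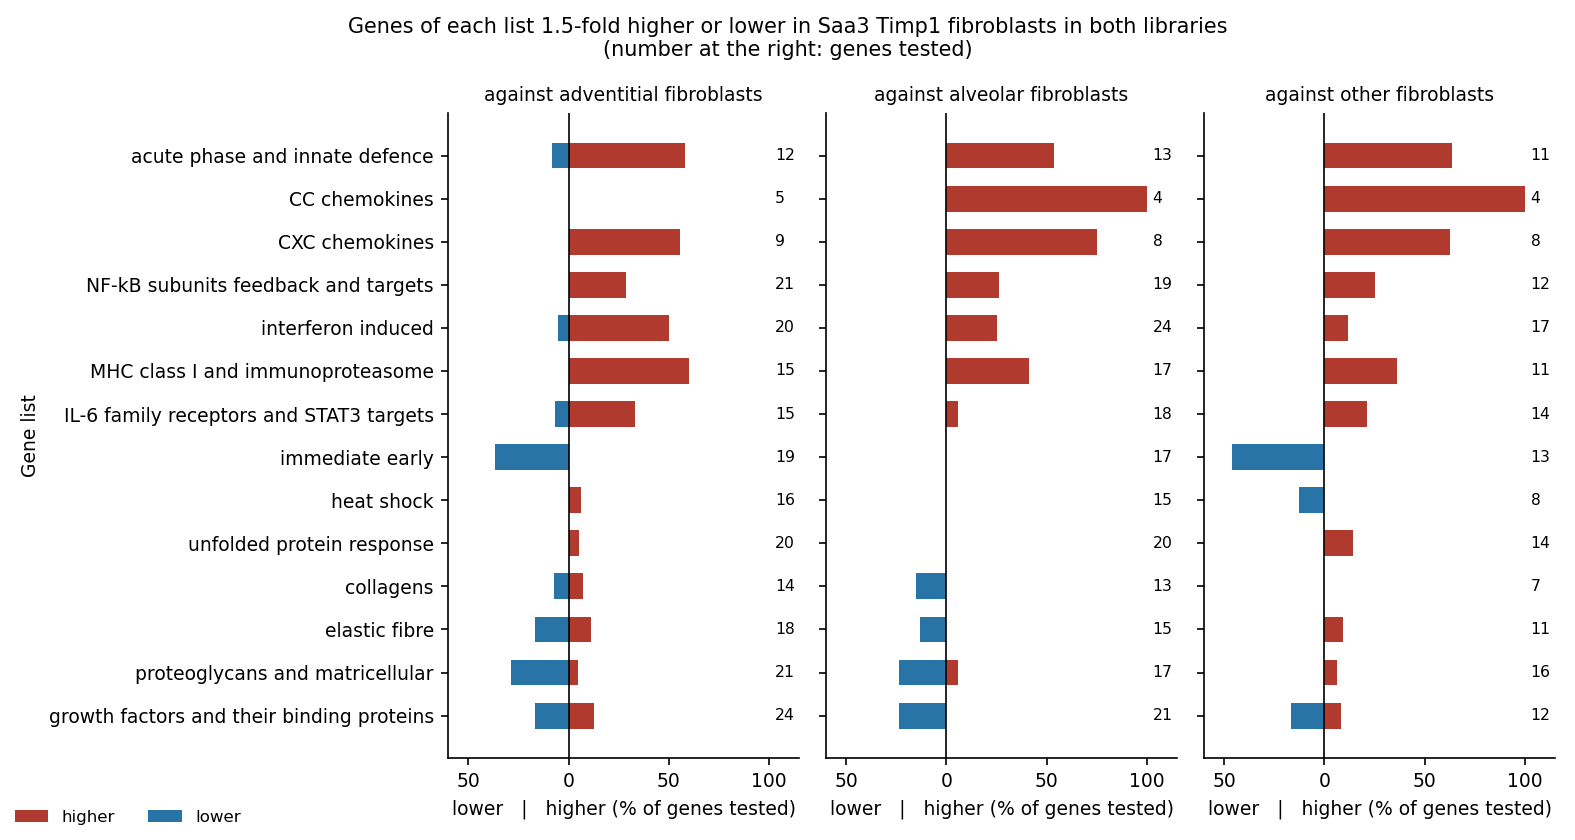
Share of the tested genes of 14 lists called higher (right, red) or lower (left, blue) in Saa3 Timp1 fibroblasts in both libraries, against adventitial, alveolar and other fibroblasts; the number at the right is the genes tested. Acute phase, CXC chemokine, interferon and MHC class I genes have more calls to the right than to the left in all 3 panels. Against other fibroblasts these were only 2 of 17 interferon and 4 of 11 MHC class I genes, where 6.85% of all genes were called higher. Immediate early genes lie to the left against adventitial and other fibroblasts.

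Among single genes, the 10 with the highest lower ratio of both libraries against each class were taken. Against adventitial fibroblasts they included Myo10, an unconventional myosin of filopodia, at 4.21 and 3.05, and Cd82, a tetraspanin, at 3.36 and 2.92. They also included Adamts9, an ADAMTS protease, at 2.95 and 4.15. Against alveolar fibroblasts they included Fst, follistatin, an activin binder, at 5.03 and 2.44, Prrx2, a mesenchymal homeobox factor, at 1.67 and 2.48, and Itga5, the fibronectin receptor subunit, at 1.72 and 1.65. Fst, Prrx2 and Itga5 rest on 11, 12 and 6 UMIs in Plaur KO. Against other fibroblasts Gbp6, an interferon-induced GTPase, stood at 2.09 and 1.88, Ifi203 at 1.81 and 1.71 and Serpina3f, a serine protease inhibitor, at 2.04 and 1.66. Olfr56, at 2.53 and 2.58 against alveolar fibroblasts, overlaps the interferon-induced gene Ifi47 on the same strand, so its reads are uncertain.

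The cells varied among themselves in which chemokines they carried. In WT, Ccl2 and Cxcl10 were both detected in 18 of 40 cells, Ccl2 alone in 8, Cxcl10 alone in 7 and neither in 7. In Plaur KO both were detected in 9 of 20 and neither in 5. Cxcl9 was almost never seen without Cxcl10: 12 of 13 Cxcl9-positive WT cells and 8 of 8 Plaur KO cells also had Cxcl10. Ccl11 and Ccl2 were both detected in 12 of 40 WT and 11 of 20 Plaur KO cells.

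Ordered by Saa3 level, the 10 WT cells with the least Saa3 stood at 1336 CPM of Saa3, 2039 CPM of Ccl2 and 938 CPM of Lcn2. The 10 with the most stood at 28092, 7869 and 5056 CPM. Ccl2 and Lcn2 were thus higher at the top than at the bottom of the order in WT, while C3 went from 3118 to 1994 CPM. Cxcl10 was highest in the second group of 10 WT cells, at 12654 CPM against 10539 CPM at the top. In Plaur KO the lowest 5 cells had 89.4 CPM of Ccl2, 268.2 CPM of Cxcl10 and no Cxcl9 UMI. The highest 5 had 6615.5, 17147 and 8256 CPM, but Ccl2 was higher still in the third group of 5, at 11135 CPM. The medians of the groups of 10 and 5 cells in this order ran from 1586 to 3995 UMIs.

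Clustering the 60 cells without the genes of the definition gave 2 clusters of 37 and 23 cells. Both held cells of both libraries, 27 and 10 in the first and 13 and 10 in the second. The first was shallower, at a median of 2019 against 5006 UMIs, and its leading genes included Tmtc1, C7, a terminal complement component, Dpep1 and Adamts4, an aggrecanase. It carried more Cxcl10, 16416 against 4517 CPM, and more Ccl2, 7649.5 against 2371 CPM. High in the second were Rpl4, a ribosomal protein, and Dcn, decorin, at 2953 against 704.2 CPM. Its highest gene by ratio, Scgb1a1, had 1706 of 1767 UMIs in 1 cell and stood at 682.5 CPM without that cell, below the 1214 CPM of the first cluster. Crip1 and Sftpa1 also had most of their UMIs in 1 cell. Neither cluster was given a cell type name, since depth moved with the split and its part in it was not tested.

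Between the libraries, 1576 genes had at least 20 UMIs in the Saa3 Timp1 fibroblasts, genes of the definition included. Of these 98 (6.22%) were called higher and 113 (7.17%) lower in Plaur KO, and the median log2 ratio of all was -0.02. TMM scaling moved all ratios by -0.11 and gave 73 higher and 149 lower. Because the sums hold few cells, single cells weigh heavily. Leaving out, for each gene, the cell with most of its UMIs in each library gave 55 genes called higher and 119 lower. Of these, 53 and 78 were among the first calls. The cells with Saa3 and Timp1 that lay outside the definition, 225 in WT and 90 in Plaur KO, give a further reading in other cells of the same libraries. There 70 of the 98 higher genes had the same sign and 14 were called the same way, and 72 of 109 lower genes with a value had the same sign and 24 were called the same way. The opposite call was made for 1 of the higher and 4 of the lower genes.

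The levels of the defining genes, which chose the cells, are given as a description. Saa3 was at 11542 CPM in WT (10944 to 12165) and 17782 CPM in Plaur KO (16726 to 18888), a log2 ratio of 0.62 (0.51 to 0.74). A single Plaur KO cell held 31.3% of its Saa3 UMIs. The per-cell medians ran the other way, a mean over cells gave 0.11 (-0.005 to 0.23), and over 13 other settings the ratio ran from 0.09 to 0.81 and was not called in 9. Timp1 was at 7460 and 9421 CPM, a log2 ratio of 0.34 (0.18 to 0.49), short of the 1.5-fold limit. In alveolar fibroblasts the ratios were 0.80 for Saa3 and 0.90 for Timp1, and in adventitial fibroblasts -0.08 and 0.47. Mgp was at 18961 and 21181 CPM and Mfap4 at 1416 and 1733 CPM, with log2 ratios of 0.16 and 0.29 that were not called.

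Without Saa3, 14 acute phase and innate defence genes were tested, of which 3 were called higher and 3 lower, with a median log2 ratio of -0.04. Serpina3n, an acute phase serine protease inhibitor, was at 811.4 CPM in WT and 1514 CPM in Plaur KO, at 0.90 (0.47 to 1.33), with a UMI in 30 of 40 and 17 of 20 cells. Its per-cell medians were 718.8 and 1311 CPM, and a mean over cells gave 0.42, short of the 1.5-fold limit. Hp was lower at -1.40 (-2.00 to -0.84), on 7 and 4 cells, and outside the definition its ratio was 0.24. Saa1, the liver serum amyloid A, is named after its values were seen: it had 49 UMIs in WT, 33 of them in 1 of 2 cells, and none in Plaur KO, a log2 ratio of -3.01 or lower against a floor of 3 UMIs. Lcn2 at -0.01 (-0.27 to 0.24) and C3 at 0.27 (0.01 to 0.53) were not called, though a mean over cells put Lcn2 at -0.61.

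Of 4 CC chemokines tested 3 were called higher in Plaur KO, with a median of 0.65. The call of Ccl2 ended under 8 of 13 other settings and that of Ccl11 under 4. Ccl2 was at 4024 CPM (3674 to 4398) and 6326 CPM (5702 to 6998), at 0.65 (0.45 to 0.85). The per-cell medians ran the other way, 1705.5 in WT and 1083.6 CPM in Plaur KO, and a mean over cells gave 0.20. Ccl2 was seen in 65% of cells in both libraries. Thinned to 1000 UMIs it was seen in 47.4% of 38 WT cells (31.0 to 64.2) and 66.7% of 18 Plaur KO cells (41.0 to 86.7), and alveolar type 2 cells, of median 6509.5 and 6199 UMIs, gave 1.06% and 0.169% at the same depth. Ccl11 (ENSMUSG00000020676, chr11:82057823-82062955) was at 1399 CPM (1196 to 1627) and 2423 CPM (2043 to 2852), at 0.79 (0.46 to 1.12), with a UMI in 16 of 40 and 17 of 20 cells. Over 13 other settings its ratio ran from 0.40 to 0.86. Thinned, Ccl11 was seen in 28.9% of 38 cells (15.4 to 45.9) and 61.1% of 18 cells (35.8 to 82.7), intervals that overlap. In alveolar type 2 cells it was seen in 0.814% and 0.203%. Ccl7 was level at 1863 and 1918 CPM, at 0.04 (-0.30 to 0.37), and Ccl8, another monocyte chemokine, had 4 UMIs in each library.

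Of 8 CXC chemokines, 3 were called higher and 1 lower, with a median of 0.27. Cxcl9 was at 1829.9 CPM (1597 to 2088) and 4357 CPM (3843 to 4922), at 1.25 (0.99 to 1.52), and had a UMI in 13 of 40 WT and 8 of 20 Plaur KO cells. A single cell held 20.4% of the WT and 45.2% of the Plaur KO UMIs. Without the top cell of each library the ratio was 0.71, as a mean over cells 0.51, and outside the definition 1.11. Cxcl5, a neutrophil chemokine, was at 2434 and 4155 CPM, at 0.77 (0.52 to 1.02). It was at 0.08 as a mean over cells and at -0.19 outside the definition. Cxcl1, also a neutrophil chemokine, was lower, at 993.6 and 656.1 CPM and -0.60 (-1.16 to -0.07). Cxcl10 at 0.12 (-0.02 to 0.26), Cxcl12, the ligand of Cxcr4, at 0.30 (-0.52 to 1.08) and Cxcl14 at 0.17 (-0.13 to 0.46) were not called, and a mean over cells put Cxcl10 at -0.34.

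Il6 and Il1r1 stood lower in Plaur KO. Il6 (ENSMUSG00000025746, chr5:30013114-30019981), the cytokine that drives the acute phase response, had 67 UMIs in 20 of 40 WT cells and 14 UMIs in 7 of 20 Plaur KO cells. Its level was 554.8 CPM (429.9 to 704.5) and 235.5 CPM (128.8 to 395.2), at -1.24 (-2.18 to -0.39). The ratio stayed below 0 over 13 other settings, from -2.38 to -0.66, and the call ended under the stricter cell filter (1000 genes, 10% mitochondrial UMIs), at -0.66 (-1.68 to 0.27). It was -1.36 in alveolar, -1.07 in adventitial and 0.18 (-0.78 to 1.05) in other fibroblasts, and -0.98 outside the definition. Il1r1 (ENSMUSG00000026072, chr1:40225080-40317257) was at 2078 CPM (1829 to 2352) and 1077 CPM (829 to 1375), at -0.95 (-1.37 to -0.55). It was detected in 36 of 40 and 16 of 20 cells, and over 13 other settings its ratio ran from -1.49 to -0.47. In adventitial fibroblasts Il1r1 stood at -0.99 and in alveolar fibroblasts at -0.45. Osmr at -0.16 (-0.76 to 0.41), Il33 at 0.40 (-0.73 to 1.48) and Il4ra, the receptor subunit of interleukins 4 and 13, at 1.21 (-0.44 to 2.91) were not called.

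Of 15 NF-kB genes 3 were called higher and 3 lower, with a median of -0.11. Sod2, mitochondrial superoxide dismutase, was higher at 0.64 (0.25 to 1.02), and Nfkb1, the p105 and p50 subunit, lower at -0.73 (-1.43 to -0.07), with other settings from -1.14 to -0.10 for Nfkb1 and from 0.02 to 0.75 for Sod2. Tnfaip3, which encodes the feedback inhibitor A20 and is named after its values were seen, had 27 UMIs in 16 WT cells and 3 UMIs in 3 Plaur KO cells. Of 14 IL-6 family receptors and STAT3 targets none was called higher and 2 lower: Arid5b, an AT-rich DNA-binding protein, at -0.98 (-1.69 to -0.32) and Junb at -0.68 (-1.27 to -0.12). Socs3, the feedback inhibitor of STAT3 signalling, stood at -0.30 (-1.13 to 0.48) and was not called.

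Interferon-induced genes gave 1 higher and 4 lower of 21, with a median of -0.24. In adventitial fibroblasts none was called higher and 11 of 27 lower, with a median of -0.82, where 3.83% of all 8744 genes were called higher and 5.23% lower. In alveolar fibroblasts it was 3 higher and 1 lower of 27, with a median of 0.06, where 2.8% of all 8887 genes were called higher and 7.78% lower. The Saa3 Timp1 fibroblasts thus lay between those classes, and no difference between the classes was tested. Gbp5, a guanylate-binding protein, was at 745.2 and 386.9 CPM, at -0.95 (-1.67 to -0.27), and from -1.06 to -0.45 over 13 other settings. Irf1, an interferon response factor named after its values were seen, had 70 and 11 UMIs, at -1.65 (-2.71 to -0.72). None of 15 MHC class I and immunoproteasome genes was called in either direction.

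Immediate early genes were called lower in 4 and higher in 1 of 14. Egr1 was at 852.8 and 454.2 CPM, at -0.91 (-1.58 to -0.29), detected in 30 of 40 and 10 of 20 cells. Egr1 was also called lower in alveolar, at -1.20, and adventitial fibroblasts, at -0.78. Of 20 heat shock genes 7 were tested, of which 4 were called higher and none lower, with a median of 0.67. In adventitial and alveolar fibroblasts, where all 20 were tested, 1 was called higher and 2 lower in each. Hspa8, the constitutive HSC70 chaperone, was at 397.4 CPM in WT and 1649 CPM in Plaur KO, at 2.05 (1.54 to 2.58). Its per-cell medians were 371.3 and 1654 CPM, with highest cells of 1753 and 3294 CPM, and over 13 other settings the ratio ran from 0.84 to 2.37. Hsp90ab1, a cytosolic HSP90, stood at 0.87 (0.48 to 1.26). In alveolar and adventitial fibroblasts the Hspa8 ratio was 0.59 and 0.68.

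Of 9 oxidative stress genes and metallothioneins 5 were called higher and none lower, with a median of 0.63. Fth1, ferritin heavy chain, which stores iron, was at 8926 and 18893 CPM, at 1.08 (0.96 to 1.20), with per-cell medians of 7276 and 12651 CPM. Mt1, a metallothionein that binds zinc and copper, was at 3593.5 and 7318 CPM, at 1.03 (0.83 to 1.22), but 37.2% of its Plaur KO UMIs were in 1 cell and the per-cell medians were 4010.2 and 5299 CPM, a mean over cells giving 0.42. Fth1 was at -0.13 in alveolar and -0.11 in adventitial fibroblasts, and Mt1 at 0.14 and -0.01. Mt2, its neighbour, stood at 0.88 (0.58 to 1.18). Without limits on adventitial and alveolar genes Fth1 was at 0.26, the lowest of its 13 settings. Fth1 and Hspa8 have processed pseudogenes of near-identical sequence, so their counts are uncertain.

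Matrix genes are given beside the shares of all tested genes, 6.22% called higher and 7.17% lower. Without the genes of the definition, none of 10 collagens was called higher and 1 lower, with a median of -0.21. Col3a1, a fibrillar collagen, was at 2517 and 4189 CPM, at 0.73 (0.49 to 0.98), and Col1a2, a chain of type I collagen, at 0.63 (0.29 to 0.98). Both are genes of the definition, given as a description. Outside it they stood at -0.09 and -0.20. Col6a1, a chain of type VI collagen, stood at -0.60 (-1.20 to -0.04), with 38.0% of its WT UMIs in 1 cell. Of 16 proteoglycans and matricellular genes, again without those of the definition, none was called higher and 4 lower, among them Ogn, osteoglycin, at -0.61 (-1.25 to -0.002). Igfbp6, which binds insulin-like growth factor 2, stood at -0.66 (-1.25 to -0.10). Over 13 other settings its ratio ran from -1.40 to -0.07, and the call ended under 6. The Igfbp6 ratio was 0.004 outside the definition, 0.004 in adventitial and 0.33 in alveolar fibroblasts. Of 12 matrix proteases and TIMPs, leaving out Timp1, none was called higher and 2 lower, and Mmp3, stromelysin, at -0.66 (-1.60 to 0.21) was not called.

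The plasminogen system, in which uPAR anchors urokinase at the cell surface, was thinly counted. Plaur (ENSMUSG00000046223, chr7:24462484-24475968) had 25 UMIs in 11 of 40 WT cells and 8 UMIs in 6 of 20 Plaur KO cells, that is 207.0 CPM (134.0 to 305.6) and 134.6 CPM (58.1 to 265.2). The log2 ratio was -0.62 (-1.98 to 0.57) and was not called. It was -0.85 in alveolar and -1.01 in adventitial fibroblasts, both called. Plau, urokinase itself, had no UMI in any of the 60 cells. Of the 10 genes of the system tested 1 was called higher and none lower, with a median of -0.28.

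Among the other genes with the largest ratios, Ifitm1, an interferon-induced membrane protein, was at 563.0 and 2036 CPM, at 1.85 (1.41 to 2.31), detected in 20 of 40 and 14 of 20 cells. Nme2, a nucleoside diphosphate kinase, stood at 1.10 (0.54 to 1.67) and Nupr1, a stress-induced nuclear protein, at 1.07 (0.62 to 1.53). Cmss1 was at 1201 and 2473 CPM, at 1.04 (0.70 to 1.38), and at 1.29 in alveolar and 1.19 in adventitial fibroblasts; Filip1l lies on its opposite strand. Of the lowest, Csmd1, a large complement control protein, stood at -1.95 (-2.87 to -1.14) on 8 and 2 cells. Ext1, a heparan sulfate polymerase, stood at -0.98 (-1.67 to -0.33), Zbtb20, a zinc finger repressor, at -0.78 (-1.42 to -0.19) and Cyp7b1, an oxysterol hydroxylase, at -0.74 (-1.30 to -0.21). Other named genes with a gene on the opposite strand in the annotation include Timp1, Ccl2, Mfap4, Junb, Ogn and Cxcl10. Mt2, Zbtb20, Csmd1, Il4ra, Adamts9 and Cd82 have one too.

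**Figure D4:**
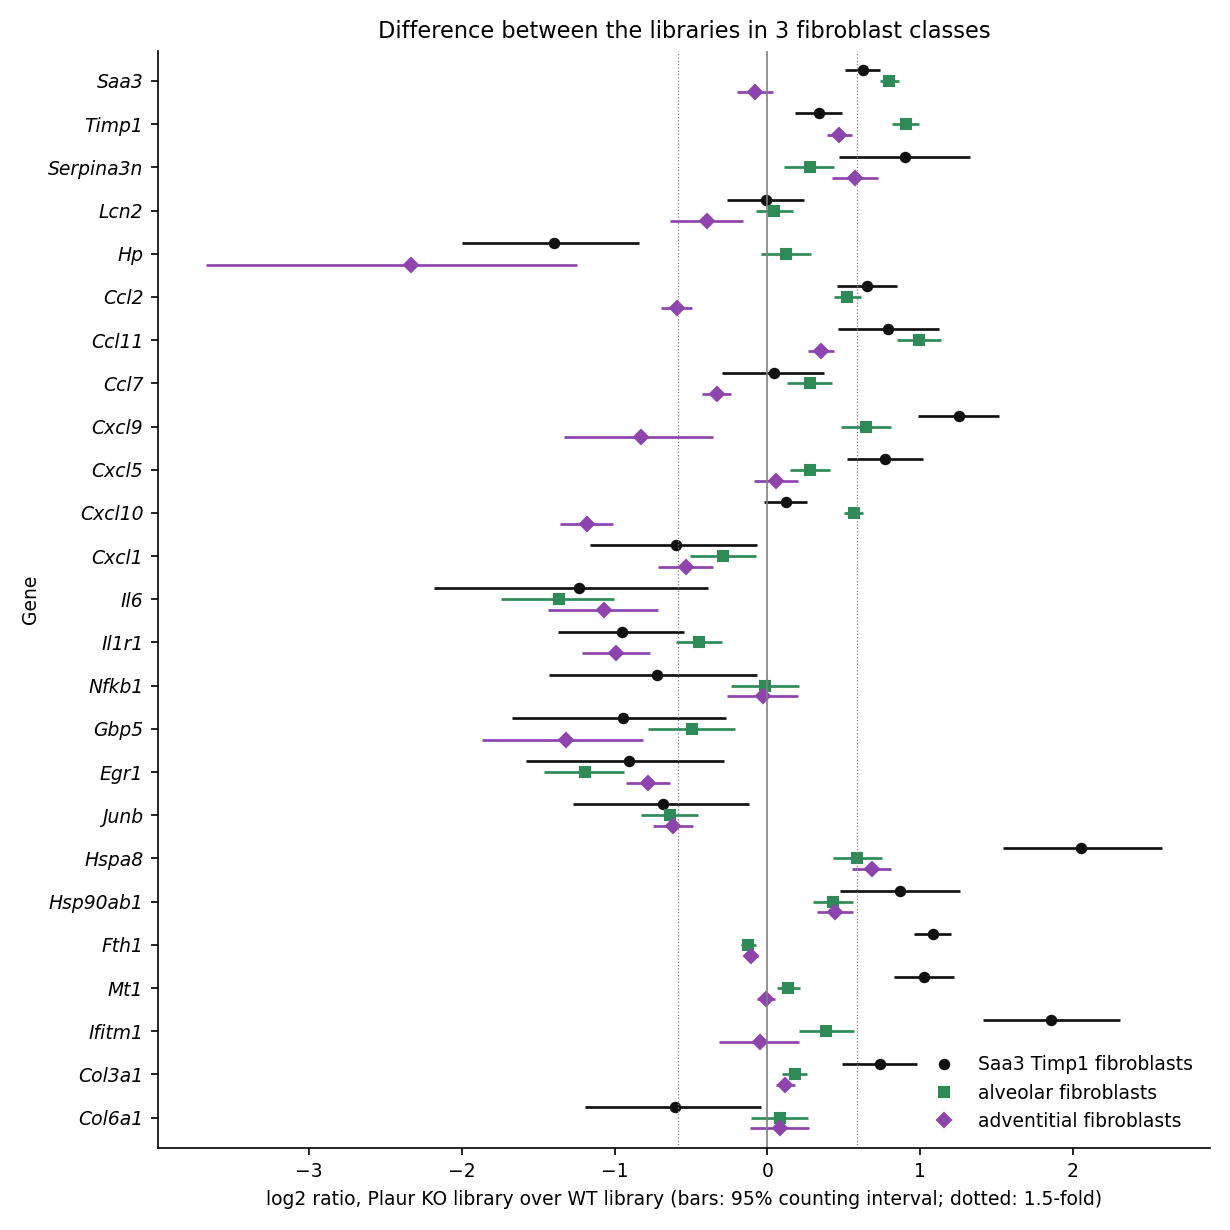
log2 ratio of the Plaur KO over the WT library for 25 genes in Saa3 Timp1 (circles), alveolar (squares) and adventitial fibroblasts (diamonds), with 95% counting intervals as bars, dotted lines at 1.5-fold and 1 library per genotype. Il6, Gbp5, Egr1 and Junb lie left of 0 in all 3 classes and Hspa8 and Hsp90ab1 right of 0. Cxcl9 and Ccl2 lie right of 0 in Saa3 Timp1 and alveolar and left of 0 in adventitial fibroblasts. So do the points of Cxcl10, but its interval in Saa3 Timp1 fibroblasts includes 0.

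Of the remaining lists, unfolded protein response genes gave no call in 13 but 11 ratios above 0, with a median of 0.32, against 9 of 21 called higher in adventitial and 8 of 20 in alveolar fibroblasts, where 3.83% and 2.8% of all genes were. Glucocorticoid-induced genes gave 3 higher of 7, with a median of 0.50 that was -0.04 with means over cells. Mt1 and Mt2, described above, are among these called genes, and Mt1 is also in the oxidative stress list. Growth factors gave 2 higher and 3 lower of 13, TGF-beta and myofibroblast genes 1 lower of 7, hyaluronan genes 1 lower of 6 and prostaglandin genes 1 lower of 4. Complement gave 1 higher of 8, elastic fibre genes outside the definition 1 higher of 12, cytokines 1 higher and 1 lower of 6 and cytokine receptors 1 higher and 1 lower of 7. Has1, a hyaluronan synthase, had 13 and 12 UMIs, and Lif, a cytokine of the IL-6 family, 3 and 5 UMIs. Of cell cycle genes 1 of 3 was called lower, and no cholesterol synthesis gene had 20 UMIs.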

How the data were processed

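Each library of lung cells was deposited by the authors as a matrix of counts, whole UMIs of a gene in a barcode with no normalization, written by Cell Ranger 7.0.0 per the file headers. The submitters' processing notes name Cell Ranger 7.0.0 and 7.1.0 and the build mm10. How barcodes were chosen, and whether intronic or antisense reads were counted, is not given in the sources used here. Gene positions are from GENCODE M21 (GRCm38), which held 32235 of the 32285 gene identifiers.

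The fibroblasts were found by the gene limits above in Python 3.11.15 with numpy 2.4.6, and doublets were kept; cells marked by Scrublet (scanpy 1.11.5, expected share 8%) were removed in an alternative. Within a library the UMIs of a class were added up and scaled to CPM by their total. Ratios have exact conditional binomial intervals, shares Clopper-Pearson intervals and CPM values Poisson intervals (scipy 1.17.1), all at 95% and for counting error only. Calls on means over cells used the counting interval of the summed UMIs moved to the new ratio, which leaves out the spread between cells. Genes with at least 20 UMIs over both libraries were compared; a gene at 0 stands at a floor of 3 UMIs. Cells are not replicates, so 1 library per genotype allows no test. Clusters came from leidenalg 0.10.2 and TMM factors from edgeR 4.0.16 in R 4.3.3.

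The members, lists and named genes were chosen with earlier results of these data known. Named genes are a fixed set of inflammatory, chemokine and plasminogen genes, then up to 2 called genes of each list at either end with at least 100 UMIs, the 10 highest and 10 lowest between libraries with at least 100 UMIs and 50 CPM, and the 10 highest against each other class. These steps left out sex-linked, immunoglobulin, haemoglobin, ribosomal and mitochondrial genes, those lacking a proper symbol, and those whose level in another compartment was over 10 times higher. Some genes that these steps name are not reported here. Of 553 list genes 3 were not found in the matrices. On simulated counts of the depth of these cells, WT against Plaur KO, 96.2% of the intervals of 1618 genes held the ratio set. Of 187 changed genes 50.8% were called, and of 1431 unchanged genes 3.08%. The counts were Poisson draws around the summed UMIs, without variation between cells or libraries. These shares are therefore no rate of false calls in the data.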

Additional observations from a re-analysis of the deposited data

Results flagged for a closer look

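The ratio of Plaur KO over WT went opposite ways in Saa3 Timp1 fibroblasts and another fibroblast class for 5 named genes, each with a call in both classes. These differences between classes were not tested, since each genotype has 1 library. Ccl2 stood at 0.65 on the log2 scale in Saa3 Timp1 fibroblasts, a call that ended under 8 of 13 other settings, and at -0.59 in adventitial fibroblasts. Cxcl9 stood at 1.25 and at -0.83 in adventitial fibroblasts. Csmd1 stood at -1.95 against 1.64 in alveolar fibroblasts, on 8 WT and 2 Plaur KO cells. Cd14 stood at 1.37 against -0.71 in alveolar fibroblasts, on 11 and 5 cells, with 41.4% and 40.5% of its UMIs in 1 cell of each library. Fst stood at -1.25 against 1.34 in alveolar fibroblasts, on 9 and 4 cells.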

How the results depend on the processing

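No paired analysis was possible because each genotype has 1 library, and for the same reason no replicate could be left out. The share of these cells kept its direction under all 7 other settings, from -1.15 to -0.53 on the log2 scale over all cells and from 0.16 to 0.72 over fibroblasts. The counts of 98 genes called higher and 113 lower in Plaur KO became 220 and 428 without the limits on adventitial and alveolar genes (19 and 33 of the first calls among them), 25 and 24 with cells thinned to 1000 UMIs, 27 and 23 with at least 100 UMIs per gene and 149 and 175 with at least 5, and 55 higher without the top cell of each gene. Against adventitial fibroblasts 210 higher and 209 lower became 79 and 105 when thinned, 74 higher with at least 100 UMIs and 134 and 356 with TMM. Against alveolar fibroblasts 121 and 138 became 46 and 40, 63 higher, and 69 and 222. Against other fibroblasts 87 and 35 became 32 and 15 when thinned and 26 and 9 with at least 100 UMIs. Without the limits on adventitial and alveolar genes 6 genes changed sign: Hp to 0.035, Cxcl5 to -0.049, Col3a1 to -0.031, Col1a2 to -0.17, Cyp7b1 to 0.16 and Fst to 0.035, and thinning took Col6a1 to 0.20. Fewer genes or cells enter under thinning and the higher UMI minimum; for the other settings the cause was not tested. Leaving aside the UMI minimums, which change no gene's ratio, 707 of 803 values of named genes lay within the interval of the main value; TMM and leaving out the 50 most abundant genes shift all genes alike. Of the named genes with a call, Junb, Egr1, Hspa8, Ifitm1 and Cmss1 kept it under all 13 settings and the others lost it under at least 1. The UMI minimums, which are among the 13, could end no call. The no-limit, top-cell and secretory settings were chosen after seeing the data. Depth limits the comparison: the Plaur KO cells held 59441 UMIs, and genes under 20 UMIs over both libraries entered no count.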
